A study of Mus musculus with 3 samples.

Results

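Autosomal Flag-Tex10 peaks that lie close together in mouse embryonic stem (ES) cells are described here stretch by stretch. The deposited peak list, on the mm9 build, was kept for chromosomes 1 to 19, sorted by start, and neighbours less than 12.5 kb apart were joined, the gap being the start of a peak minus the highest end before it. Of 5120 autosomal peaks (5189 peaks in the whole list), 564 fell in 156 stretches of 3 or more peaks, 938 formed 469 pairs, and 3618 stood alone. Members were thus chosen by the measured positions of the peaks, and because scores and widths come from the same list, all values below are descriptions without a test.

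The series holds 3 libraries of 1 cell line, each its own group: an immunoprecipitation with an antibody against the FLAG tag, an immunoprecipitation with normal mouse IgG, and input DNA. All came from J1 cells of strain 129SV, grown with serum and leukaemia inhibitory factor and carrying a 3xFlag-Tex10 transgene expressed ectopically from a piggyBac transposon (the line T10F10). All 3 libraries share the transgene, so no group lacks the tagged protein, and whether the line is a single clone is not stated in the labels. A processed file was read for the FLAG library alone, and the IgG and input DNA are not analysed here. With 1 library there is no replicate, so no spread between experiments can be given, and the list holds no read counts, so its depth is unknown. The number attached to each peak has no stated scale and is called a score here, as the authors deposited it; it serves only to rank peaks within this list.

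Tex10 is a nuclear protein of the Pelp1, Wdr18 and Senp3 complex, which acts in ribosome maturation, and the title of the series places it at super-enhancers, dense groups of enhancers beside genes of cell identity. In ES cells such groups surround genes for the transcription factors Oct4 (Pou5f1), Sox2, Nanog, Klf4 and Esrrb and the miR-290 to miR-295 microRNAs. The joining distance used here is the one in common use to assemble enhancers into super-enhancers, but no enhancer mark was measured, and the stretches are groups of peaks only. Gene loci are named from mm9 positions recalled from general knowledge, in a table written after the stretch coordinates had been seen. No mm9 annotation was used, so the names are approximate and no distance to a gene is given.

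The sequences that follow belong to genes at which a stretch of peaks lay. The miR-290 to miR-295 cluster, whose microRNAs are abundant in ES cells, had one of the stretches with the most peaks. The mature 3p arms in RefSeq (GRCm38.p6) are shown with the seed, bases 2 to 8, in capitals, because the seed sets which transcripts a microRNA recognises.
mmu-miR-291a-3p: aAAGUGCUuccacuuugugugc
mmu-miR-294-3p: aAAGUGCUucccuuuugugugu
mmu-miR-295-3p: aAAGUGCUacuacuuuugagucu
mmu-miR-290a-3p: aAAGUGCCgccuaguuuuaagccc
mmu-miR-291b-3p: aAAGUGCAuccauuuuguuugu
mmu-miR-293-3p: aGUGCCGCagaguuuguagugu
Of these 6 arms, miR-291a, miR-294 and miR-295 share 1 seed, miR-290a and miR-291b differ from it in the last seed base, and miR-293 has another seed.

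Promoters are shown for Pou5f1 and Etv5, where a stretch reached the region of the gene start by recalled mm9 position. Each is the run of 250 bases before the gene start in RefSeq (GRCm38.p6), and since that build is not the build of the peaks, which of these bases a peak covered was not determined. Capitals mark matches, on either strand, to the octamer bound by Oct4 (ATGCAAAT), a SOX core (ACAATG), the KLF and SP box (GGGCGG), an ETS site (CCGGAAG) or the TATA box (TATAAA). None of these motifs contains another.
Pou5f1: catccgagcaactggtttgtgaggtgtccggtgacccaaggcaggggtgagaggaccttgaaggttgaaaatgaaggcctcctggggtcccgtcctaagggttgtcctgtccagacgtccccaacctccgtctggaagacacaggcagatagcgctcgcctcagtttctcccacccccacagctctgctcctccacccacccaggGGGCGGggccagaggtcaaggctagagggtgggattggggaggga
Etv5: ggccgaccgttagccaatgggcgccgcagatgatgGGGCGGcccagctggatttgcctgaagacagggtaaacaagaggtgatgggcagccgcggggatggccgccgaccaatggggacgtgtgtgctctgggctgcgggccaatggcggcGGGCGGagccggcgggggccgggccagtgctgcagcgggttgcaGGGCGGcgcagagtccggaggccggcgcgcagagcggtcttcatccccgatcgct
The Pou5f1 window held 1 KLF and SP box, 8 CG dinucleotides and 62.0% G and C. The Etv5 window held 3 KLF and SP boxes, 27 CG dinucleotides and 71.2% G and C. Neither held another of these motifs. Over all 32851 promoter windows of the same length in the table, 32.7% held the KLF and SP box, 10.7% the SOX core, 12.4% the TATA box, 6.91% the ETS site and 1.60% the octamer, and the median window had 52.4% G and C and 6 CG dinucleotides. These are matches of letters and not sites of binding.

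Most stretches were short chains of few peaks. Of the 156, 106 (67.9%) held 3 peaks, 33 held 4 and 11 held 5. Only 6 were larger: 2 held 7 peaks, 2 held 8, and single stretches held 10 and 19. The 17 stretches of 5 or more peaks together held 114 of the 564 member peaks. Median length was 8.87 kb, with quartiles of 4.04 and 14.1 kb and extremes of 1.33 and 38.2 kb, so 49 stretches were shorter than 5 kb and 16 longer than 20 kb. Peaks covered a median of 15.4% of a stretch (quartiles 9.19% and 27.9%).

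Spacing within the stretches was uneven. Over 408 gaps between neighbouring members the median was 1996 bp (quartiles 575 and 5268 bp), and 149 gaps (36.5%) were under 1 kb whereas 35 (8.58%) exceeded 10 kb. In 24 stretches every gap was under 1 kb, and in 64 every gap was over 1 kb. Among the 106 stretches of 3 peaks, the larger gap was at least 5 times the smaller in 40 and less than 2 times the smaller in 34. In the former, a pair of peaks lay closer together than the remaining peak did, but the ratio sets no distance in bp. The median ratio of the gaps was 3.14. The strongest peak of such a triplet stood in the middle in 33 (31.1%) and at an end in 73. A triplet has 1 middle place and 2 ends, so a larger count at the ends would arise without any preference.

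**Figure D1:**
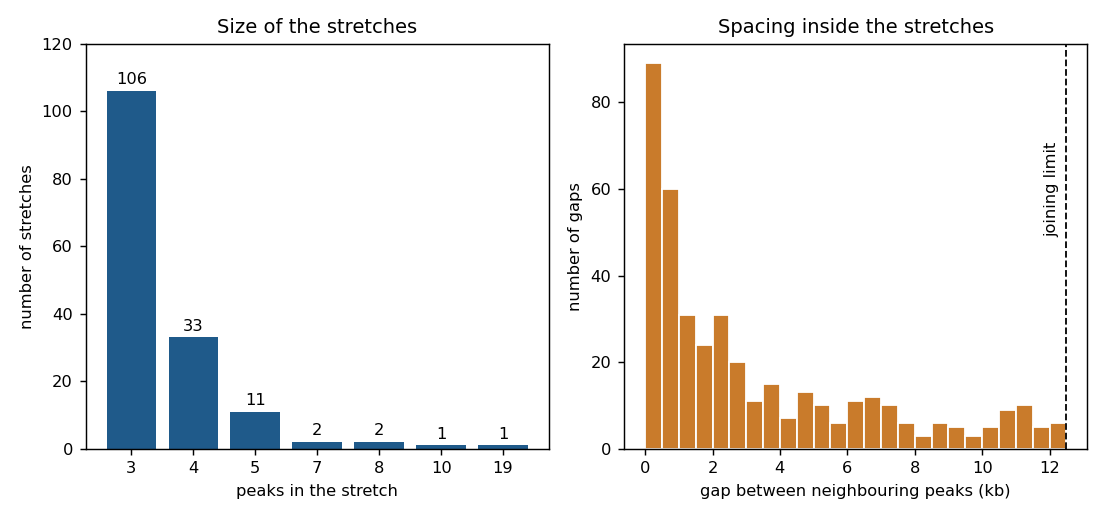
Left, number of stretches (vertical axis) by the number of peaks they hold (horizontal axis). Right, number of gaps between neighbouring member peaks by gap width in kb, in bins of 0.5 kb, with the joining limit of 12.5 kb as a dashed line. Stretches of 3 peaks made up 106 of 156, and the most frequent gaps were under 1 kb.

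Few gaps lay close to the joining limit. The widest gaps inside a stretch were 12313, 12396 and 12454 bp, on chromosomes 4, 15 and 10, and each was in a stretch of 3 peaks. The narrowest open gaps across which joining would have given 3 or more peaks were 12864, 12884 and 12931 bp, on chromosomes 7, 13 and 2, giving 5, 4 and 4 peaks. Between 12 and 12.5 kb there were 6 member gaps, and between 12.5 and 13 kb there were 4 open ones.

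Of 67 listed autosomal gene loci with known roles in ES cells or kept for comparison, 26 lay within 50 kb of a stretch. The list was drawn up with earlier results of these data known, so this count is not independent evidence. For 15 of the 26, the recalled mm9 position had also been compared with a position on another build shifted from memory, a comparison made almost only where a stretch lay, so these names are less sure: Dppa5a, Slc2a3, Klf4, Esrrb, Nr5a2, Sall1, Lin28a, Tdh, Nodal, Spry2, Etv5, Ier2, Junb, Jarid2 and Neat1. Of the other 52 loci, 11 had a stretch, but since the 15 set aside all had one, this share is lowered by the way the loci were divided. For scale, 0.682% of the autosomal length lay within 50 kb of a stretch, and 14.6% within 50 kb of any autosomal peak, where 59 of the 67 loci lay. Near the 26 loci were 27 stretches with 113 peaks, among them 8 of the 17 stretches of 5 or more peaks. Their highest scores had a median of 11.4, against 8.27 for the other 129 stretches. The highest score of a stretch can only grow as peaks are added, and these sets were not matched for number of peaks.

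Core pluripotency genes had a stretch at 5 of 7 loci. Pou5f1 encodes Oct4, and its stretch (chr17:35639612-35643163) held 4 peaks scoring 3.18, 13.6, 5.73 and 4.39 within 3.55 kb, so 1 peak was more than 2 times as high as each of the others. Sox2, partner of Oct4 on DNA, had 3 peaks around the gene (chr3:34545139-34553154) scoring 4.71, 2.69 and 8.28 over 8.02 kb. Another stretch, 102 kb beyond the first (chr3:34655508-34660569), held 4 peaks scoring 10.3, 28.4, 7.29 and 20.9 in 5.06 kb, of which 43.2% was covered by peaks. It lies in the downstream region known to hold the distal Sox2 enhancer, and every one of its scores except 7.29 was higher than the highest at the gene itself. It is described for its rank, being among the 10 stretches with the highest scores, and its placement at that enhancer was made after its values were seen.

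Nanog and Slc2a3, which codes for a glucose transporter, had 3 peaks beyond Slc2a3 (chr6:122714413-122716879) with scores of 6.91, 6.09 and 1.53. Nanog itself lay close to the limit of 50 kb by its approximate position, so whether it counts depends on that limit. The highest peak within 50 kb of Nanog, at 8.48, was outside this stretch. The stretch was compact at 2.47 kb and 64.8% covered, with a first peak of 1030 bp. Dppa5a, an RNA-binding protein of pluripotent cells, had 4 peaks (chr9:78212495-78222938) scoring 16.9, 3.82, 10.7 and 4.24. Dppa3 and Gdf3 had no stretch, though each had 2 peaks within 50 kb.

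Naive-state regulators had a stretch at 3 of 8 loci. Esrrb, an orphan nuclear receptor that sustains self-renewal, held 3 peaks inside the gene (chr12:87839479-87845636) scoring 14.6, 44.8 and 8.13, evenly placed with gaps of 2238 and 2029 bp. All 3 exceeded the autosomal median of 5.19, and the highest was in the middle. Klf4, a zinc-finger factor used in reprogramming, had 4 peaks on one side of the gene (chr4:55476865-55493813) scoring 12.7, 4.05, 8.37 and 3.45 over 16.9 kb, with a gap of 10.8 kb after the first. By recalled position the highest peak within 50 kb of Klf4 scored 8.37, so the first peak, at 12.7, lay beyond that limit. Nr5a2, a nuclear receptor that can act on the Pou5f1 gene, had 3 weaker peaks (chr1:138847835-138850584) at 5.16, 6.35 and 4.50. No stretch lay at Klf2, Klf5, Tfcp2l1, Tbx3 or Prdm14, each with 2 or 3 peaks within 50 kb.

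Other cell-state genes had a stretch at 4 of 9 loci. Sall1, a zinc-finger repressor, had 5 peaks on one side of the gene (chr8:91515746-91539845) scoring 6.21, 35.8, 9.31, 2.67 and 5.54 over 24.1 kb, so that 1 peak stood far above its neighbours. Sall4, its relative and an early regulator of Pou5f1, had 3 peaks at the gene (chr2:168588164-168592223) between 4.44 and 6.89. Lin28a, which blocks maturation of let-7 microRNAs, had scores of 4.44, 5.30 and 31.3 (chr4:133573526-133576947), the strongest peak being the last of 3 in 3.42 kb. Tdh encodes threonine dehydrogenase, on which mouse ES cells depend, and had 4 peaks (chr14:64108231-64127929) from 4.44 to 11.4. Zfp42, Utf1, Otx2, Tcl1 and Zfp281 had none; the highest single peak near Zfp42 scored 20.9 and the highest near Utf1 scored 19.1.

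The growth gene Mycn and the miR-290 to miR-295 cluster had stretches, and Myc, miR-302 and miR-17-92 did not; the last 2 had no peak within 50 kb. At Mycn (chr12:12933976-12950702) 5 peaks scored 9.19, 2.83, 1.95, 2.88 and 42.5, the last being 14.8 times the median of its own stretch. The miR-290 to miR-295 stretch (chr7:3193483-3219224) had 8 peaks scoring from 3.85 to 19.7, with a median of 7.33, over 25.7 kb. Its gaps ran from 830 to 7449 bp, and it differed from Mycn in having no single dominating peak: the highest was 2.69 times the median. The 3p arms printed above are from this cluster, which also holds miR-292.

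Signalling genes had a stretch at 4 of 17 loci. Tdgf1, a co-receptor for Nodal, had 8 peaks (chr9:110848091-110863061) scoring from 2.69 to 10.6 with a median of 5.43 over 15.0 kb, and its first 4 peaks were separated by 717, 160 and 193 bp. Nodal, the ligand, had 3 peaks at its start (chr10:60878361-60881280) scoring 7.18, 3.38 and 3.96. The ETS factor Etv5, a target of FGF signalling, had 2 stretches 24.9 kb apart. One held 5 peaks (chr16:22398460-22413320) scoring 4.45, 4.33, 12.9, 3.06 and 3.42, and the other held 3 narrow peaks at the gene start (chr16:22438255-22439641) scoring 3.52, 4.31 and 3.56 in 1.39 kb. Spry2, an inhibitor of FGF signalling, had 4 peaks (chr14:106294176-106300272) between 3.64 and 6.58, while the highest peak within 50 kb of the gene, at 10.9, was outside this stretch. Lefty1, Lefty2, Fgf4, Spry4, Dusp6, Etv4, Socs3, Id1, Id2, Id3, Smad7, Lif and Lifr had no stretch; Id2 had no peak within 50 kb and the other 12 had 1 to 3 each.

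Chromatin genes had a stretch at 1 of 6 loci. Jarid2, a partner of a Polycomb repressive complex, had 5 peaks over 28.9 kb (chr13:44800573-44829466) scoring 8.12, 4.71, 15.6, 2.76 and 5.54, and this was among the 5 longest stretches. Phc1, Rybp, Dnmt3a, Dnmt3b and Dnmt3l had none, though the highest of 3 peaks near Phc1 scored 26.8.

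Cdh1, which codes for the adhesion protein E-cadherin, had 7 peaks (chr8:109123541-109145798) scoring from 2.69 to 11.6 with a median of 5.62 over 22.3 kb. Among immediate early genes, Ier2 had 5 peaks (chr8:87174068-87188160) scoring 23.1, 7.83, 6.68, 6.52 and 5.13. Junb, a subunit of AP-1, lay within 50 kb of 2 stretches, 38.6 kb apart. The one at the gene (chr8:87500007-87510332) had weak peaks of 2.01, 2.99, 2.67 and 5.79, and the second (chr8:87548933-87561267) had 5.02, 4.71 and 4.23, while a peak near Junb outside both scored 108. Jun, Fos and Egr1 had no peak within 50 kb. The nuclear noncoding RNA gene Neat1 had 3 peaks at its start (chr19:5845234-5849728) scoring 3.67, 11.0 and 6.31, and Malat1 beside it was within 50 kb of the same stretch.

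The histone gene clusters of chromosome 13 had several stretches: 3 peaks (chr13:21874677-21879505, highest score 7.75), 4 peaks (chr13:23636297-23654328, highest 8.68) and 4 peaks (chr13:23830600-23853721, highest 13.2). The gaps were 3428 and 469 bp in the first and ran from 4360 to 10129 bp in the last. Outside the first stretch, but within 50 kb of its gene cluster, a peak scored 8.16. The smaller histone cluster of chromosome 3 had 4 peaks within 50 kb but no stretch. The 4 Hox clusters, which hold developmental genes under Polycomb control in ES cells, had no stretch and at most 1 peak each.

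**Figure D2:**
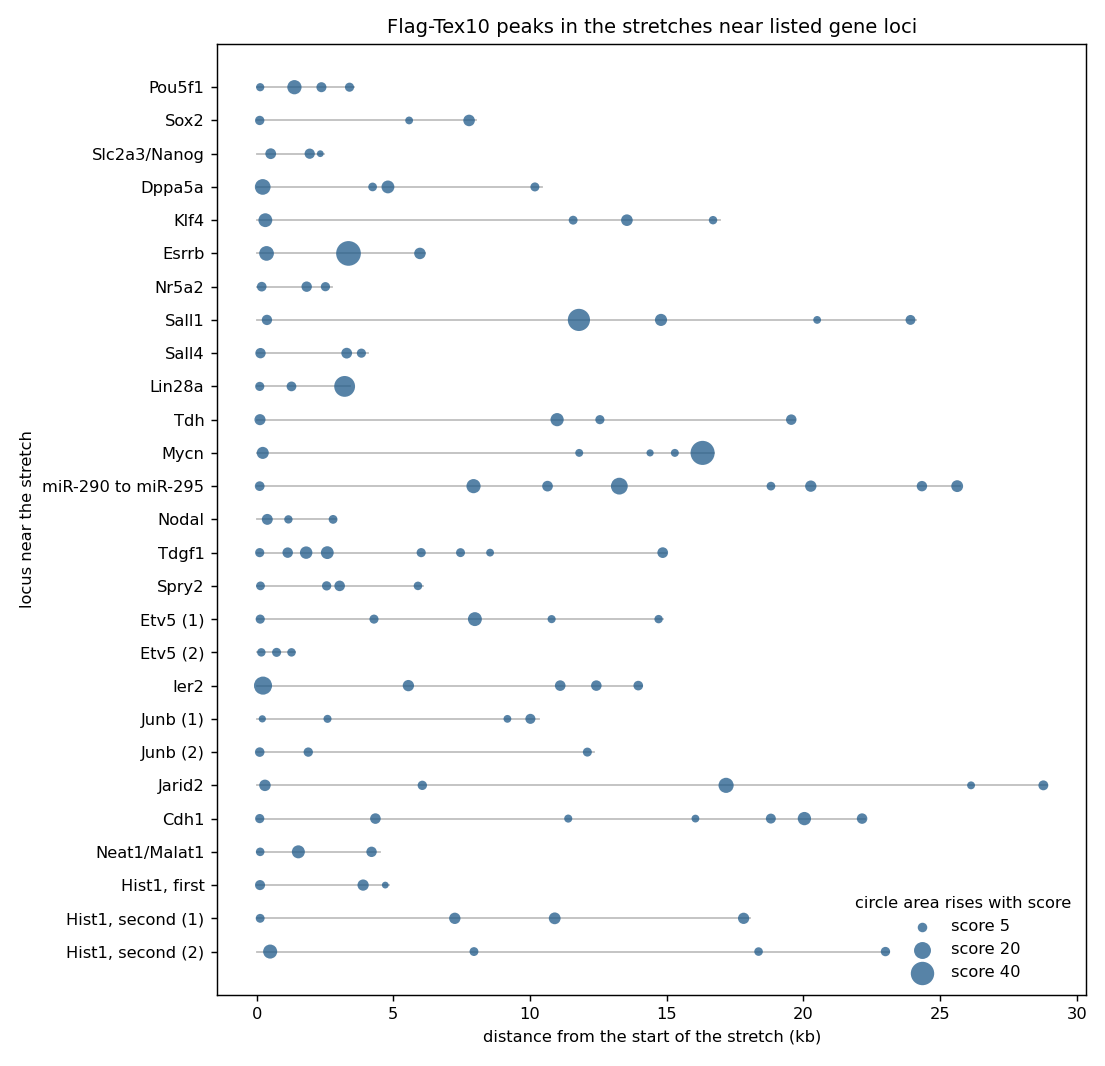
Map of the stretches near listed loci, 1 row each, with a second row in brackets where a locus has 2 stretches. The horizontal axis gives distance in kb from the start of the stretch, each circle is a peak, and circle area rises with the score. Esrrb, Mycn, Sall1 and Lin28a have 1 large circle each (scores of 31.3 to 44.8), whereas the 8 peaks at miR-290 to miR-295 and the 8 at Tdgf1 are all below 20.

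The highest member scores lay in regions of repeated DNA. The region at the assembled start of chromosome 9 (chr9:2999953-3038171), beside the centromere in a region known for satellite repeats, held 19 peaks scoring from 4.40 to 131, with a median of 19.5, over 38.2 kb. It was first by number of peaks and by length. A known satellite block on chromosome 2 (chr2:98502290-98507590) held 4 peaks scoring 211, 9.82, 113 and 252, the highest member score, in 5.30 kb. The start of chromosome 18 (chr18:3004709-3006039) had 3 peaks scoring 15.7, 5.28 and 5.93 and was the shortest stretch, 1.33 kb long and 74.9% covered. These 3 stretches held 26 peaks, among them 9 of the 11 members that scored 50 or more. How reads from repeated DNA were placed is not stated in the labels, and its part in these scores was not tested.

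The other 2 members above 50 stood in stretches to which no gene is assigned here. One, scoring 95.4, was the middle peak of 3 on chromosome 13 (chr13:54850698-54860069), between peaks of 5.82 and 3.75. The other, scoring 53.8, was the first of 3 on chromosome 9 (chr9:20661544-20683034). It lay 11.1 kb before a peak of 5.45, with a peak of 2.56 further on. A stretch of chromosome 2 (chr2:154249346-154254125), the last of the 10 with the highest scores, had 4 peaks of 8.36, 3.67, 21.9 and 27.0 in 4.78 kb.

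Several stretches with many peaks also have no gene assigned here. Chromosome 8 held 10 peaks in 26.5 kb (chr8:19921556-19948073), the most outside the start of chromosome 9, scoring from 1.90 to 11.8 with a median of 5.37. A stretch of 4 peaks (chr8:19990109-20020596) scoring 4.64, 2.50, 8.37 and 19.6 followed 42.0 kb further on and, at 30.5 kb, was longer than all but the start of chromosome 9. On chromosome 10, 7 peaks (chr10:62347065-62361157) scored 8.04, 3.96, 5.24, 9.64, 12.4, 8.24 and 7.83 over 14.1 kb, so only 1 was below the autosomal median. The most compact of the larger stretches had 5 peaks in 3.32 kb on chromosome 17 (chr17:34256628-34259947), scoring 6.98, 4.44, 6.47, 4.23 and 5.07 with gaps of 246 to 353 bp. It became 1 peak when peaks under 500 bp apart were merged. On chromosome 16, 5 peaks (chr16:23098088-23108740) scored 6.06, 12.3, 6.51, 11.2 and 7.80, all above the autosomal median. On chromosome 14, 5 peaks (chr14:122864243-122878250) scored 2.94, 7.22, 7.75, 2.96 and 3.67. On chromosome 1, 5 peaks spread over 25.2 kb (chr1:72258762-72283924) scored up to 13.2, and on chromosome 18, 5 peaks over 21.9 kb (chr18:65725198-65747113) scored up to 8.70. No stretch held more than 4 peaks on chromosomes 2, 3, 4 and 6, whose largest are described above, nor on chromosomes 5, 11, 15 and 19. For the latter, the stretches of 4 peaks with the most bases covered were on chromosomes 5 (chr5:118885277-118896230), 11 (chr11:102178163-102193567), 15 (chr15:25683627-25703895) and 19 (chr19:23207595-23216280). They had highest scores of 25.3, 9.11, 8.16 and 15.2, and only that of chromosome 11 was not tied in number of peaks.

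Very short stretches looked different from one another in score. A stretch of chromosome 17 (chr17:17875814-17877269) had peaks of 7.56, 11.8 and 13.2 in 1.46 kb, and one of chromosome 16 (chr16:13748804-13750305) had 19.2, 6.76 and 3.96 in 1.50 kb. Another, on chromosome 3 (chr3:30993634-30995115), was weak throughout at 2.41, 3.14 and 3.45, with widths of 224, 224 and 240 bp. Each of these short stretches became 1 peak when peaks under 500 bp apart were merged. The width of 224 bp was the narrowest in the list and was shared by 54 members (9.57%), against 11.0% of paired and 12.3% of isolated peaks.

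Within a stretch, the highest score was a median of 2.59 times the lowest (quartiles 1.80 and 3.64, extremes 1.08 and 29.8). The highest score per stretch had a median of 8.54 and the lowest a median of 3.60. In 94 stretches no peak reached 10, in 44 the highest lay from 10 to under 20, and in 18 it was 20 or more. Of those 18, 14 had a single peak at that level. The 4 with several were the satellite block of chromosome 2 (3 peaks), the start of chromosome 9 (9 peaks), the region downstream of Sox2 (2 peaks) and chr2:154249346-154254125 (2 peaks). Every peak was below the autosomal median in 17 stretches, and every peak was at or above it in 21.

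Stretches with more peaks had higher scores. The highest score, which can only grow as peaks are added, had a median of 7.33 in stretches of 3 peaks, 10.4 in those of 4 and 12.4 in those of 5 or more. The median over all member peaks was 5.11, 5.80 and 6.49. Without the start of chromosome 9 the last value was 6.21, over 16 stretches. Median length was 7.09, 11.0 and 16.9 kb, whereas the median gap hardly varied, at 1878, 2151 and 2056 bp.

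**Figure D3:**
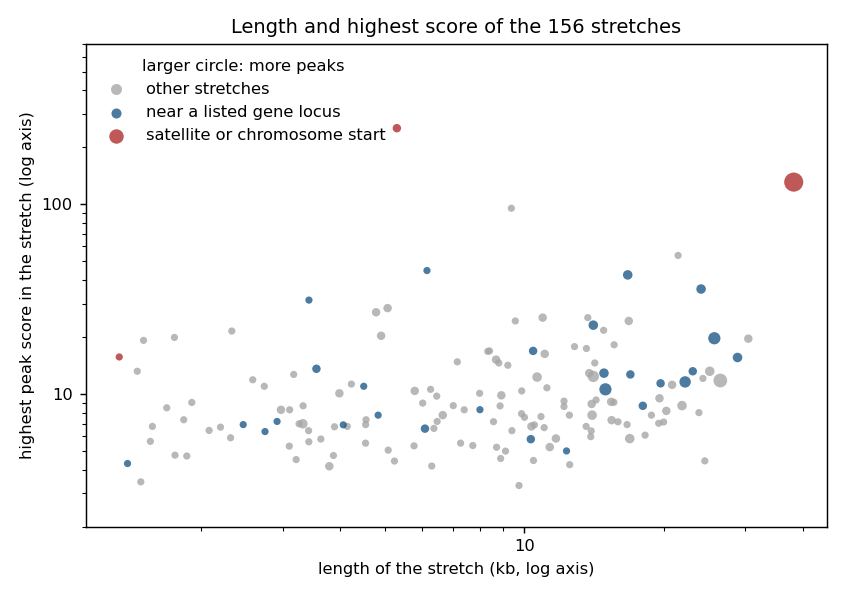
Each circle is 1 of the 156 stretches, with its length in kb (horizontal, log axis) and its highest peak score (vertical, log axis); larger circles hold more peaks, blue marks stretches near a listed gene locus and red the 3 satellite or chromosome-start stretches. High scores were not limited to long stretches: Lin28a reached 31.3 in 3.42 kb and Sall1 35.8 in 24.1 kb. No stretch shorter than 2.33 kb reached 20.

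Scores in stretches were close to those of the other autosomal peaks. Their median score was 5.54 (quartiles 3.92 and 8.12), compared with 4.97 for paired and 5.14 for isolated peaks. A score of 20 or more was reached by 30 members (5.32%), by 3.20% of paired and by 3.65% of isolated peaks. Without the 3 repeat stretches, the 538 remaining members had a median of 5.34, and 18 (3.35%) reached 20, a share between those of paired and isolated peaks. Repeats were taken out of the stretches only, after the scores had been seen. Paired and isolated peaks, with scores up to 317 and 302, were left whole, so the comparison is uneven. The median width was 334 bp in stretches, 330 bp without the repeats, 321 bp in pairs and 310 bp for isolated peaks.

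**Figure D4:**
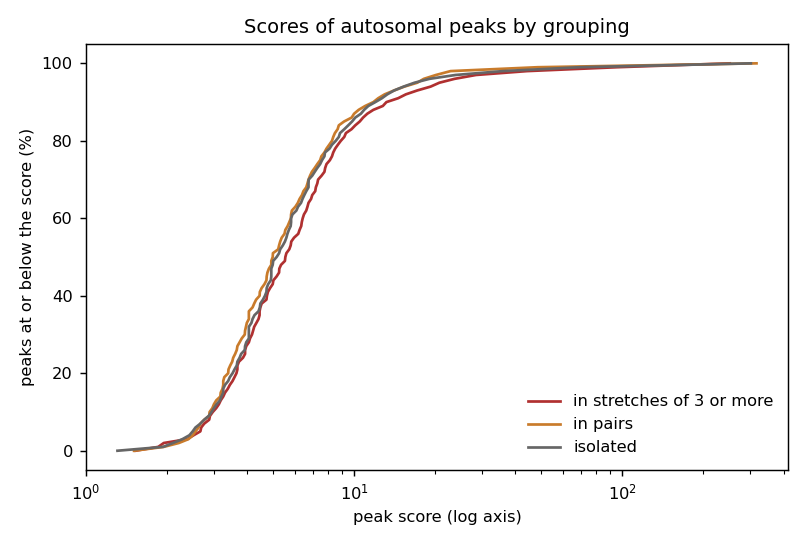
Percentage of autosomal peaks (vertical axis) with a score at or below the value on the horizontal log axis, for the 564 peaks in stretches, 938 in pairs and 3618 isolated. The curve of the stretches lies slightly to the right of the others through the middle, at a median of 5.54 against 4.97 and 5.14.

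Stretches were most frequent on chromosome 8. It had 23, or 17.5 per 100 Mb, against 5.68 per 100 Mb over the other 18 autosomes, and chromosomes 19 (13.0), 17 (11.5) and 11 (9.03) followed. Of its 443 peaks, 92 (20.8%, 95% Wilson interval 17.2 to 24.8) were members, compared with 10.1% on the other autosomes. The interval covers counting error only and takes peaks as independent, which joined peaks are not. Chromosome 8 also had the most peaks per Mb of all autosomes (3.36, against 2.00 over the others), and the part of this density in its stretches was not tested. Chromosome 11 had a like density, 3.18 per Mb, with 8.79% of its peaks in stretches (interval 6.36 to 12.0). The stretches of chromosome 8 did not stand out in strength: 2 of 23 reached a score of 20, as did 16 of the other 133, and the median member score was 5.25 against 5.56. Of those 23, 11 (47.8%) held 4 or more peaks, compared with 29.3% elsewhere. At the low end, chromosome 5 had 4.94% of its peaks in stretches and chromosome 1 had 5.12%.

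**Figure D5:**
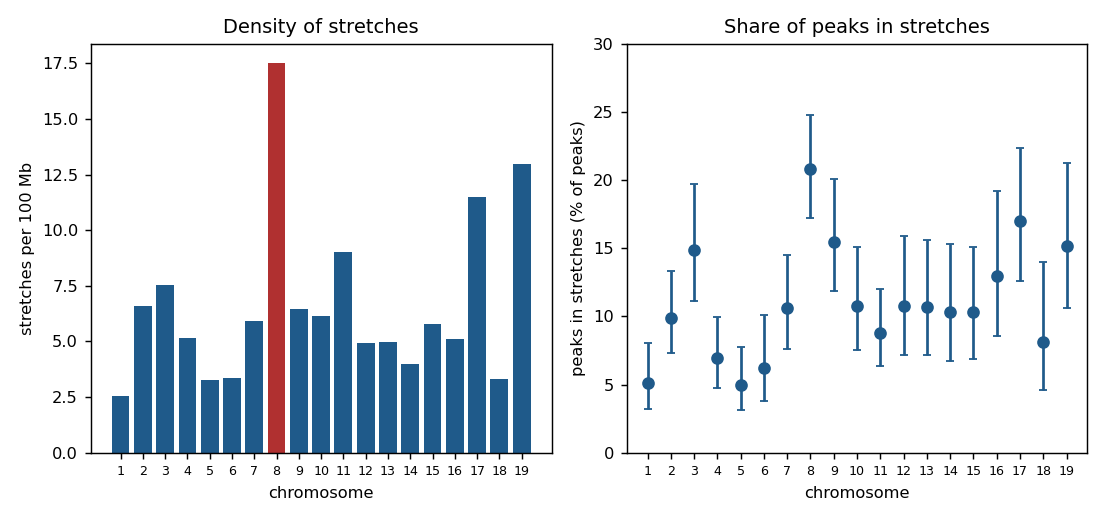
Left, stretches per 100 Mb of mm9 length on each autosome, with chromosome 8 in red at 17.5. Right, percentage of each chromosome's peaks that lie in stretches, with 95% Wilson intervals as bars; chromosome 8 is highest at 20.8% and chromosome 5 lowest at 4.94%.

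Some stretches lay close to one another, at a density over all autosomes of 6.31 stretches per 100 Mb. Whether close pairs were more or less frequent than scattered placement would give was not tested. In 5 cases a pair of stretches was less than 100 kb apart: the Etv5 pair (24.9 kb), a pair on chromosome 2 that begins with chr2:154249346-154254125 (28.4 kb), a pair on chromosome 19 that ends with chr19:23207595-23216280 (37.7 kb), the Junb pair (38.6 kb) and the pair of chromosome 8 near 20 Mb (42.0 kb). The Sox2 pair, at 102 kb, fell just outside that distance.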

How the data were processed

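The FLAG library of J1 ES cells was analysed from its peak list. The build (mm9) and, with no role stated, the tools Bowtie 1.0.0, SAMtools 0.1.19, FastQC 0.10.1 and bedtools 2.18.1 come from the submitters' processing notes. The peak caller and its control are not given in the sources used here. Positions are those the authors deposited, with starts given 1-based, and the score is the authors' deposited number, of unstated scale.

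Peaks were joined and counted in Python 3.11.15 (pandas 2.3.3). The mm9 lengths, assembly gaps included, came from GenomeInfoDb 1.38.1. The joining recovered the planted stretches in 20 of 20 simulated lists. Their gaps were drawn on the proper side of the joining limit, so this checks the code only. No test of significance was made. Stretches were named if they were among the 10 with the most peaks, the 10 with the highest scores, the 5 longest or 5 shortest, had the most peaks on their autosome, or lay within 50 kb of a listed locus; ties in number of peaks went to the stretch with more bases covered by peaks. The members and gene lists were chosen with earlier results of these data known. Locus positions on mm9 were recalled and not checked against an annotation; the listed genes Tet1 and Tet2 were not placed, because their positions rested on another build. Alternatives changed the joining distance, the peak minimum, the score threshold, the gap measure and the chromosomes used.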

Additional observations from a re-analysis of the deposited data

How the results depend on the processing

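The values compared are the number of stretches, their peaks, the share of autosomal peaks in them, median length, median score, median gap and listed loci within 50 kb. Joining at less than 5 kb gave 94 stretches with 332 peaks (6.48%), 4.10 kb, a score of 5.74 and a gap of 822 bp. Joining at less than 10 kb gave 136 stretches with 489 peaks (9.55%), 6.84 kb, 5.52 and 1610 bp. Less than 15 kb gave 172 stretches with 622 peaks (12.1%), 9.86 kb, 5.52 and 2178 bp. At less than 25 kb there were 237 stretches with 874 peaks (17.1%), 20.0 kb, 5.34 and 3595 bp. Listed loci numbered 20, 26, 29 and 31 at less than 5, 10, 15 and 25 kb, against 26 at the main distance. A minimum of 4 peaks left 50 stretches with 246 peaks (4.80%), 14.1 kb, 6.30, 2057 bp and 15 loci. Peaks scoring at or above the median formed 39 stretches with 153 peaks (5.98%), 10.7 kb, 8.36, 1800 bp and 8 loci. Merging peaks under 500 bp apart left 110 stretches with 395 peaks (8.03%), 11.3 kb, 5.79, 2879 bp and 20 loci. Gaps between midpoints gave 152 stretches with 552 peaks, 8.76 kb and 1936 bp. Without chromosome 8 the values were 10.1%, 8.80 kb, 5.56 and 1980 bp. Leaving out the 3 satellite or chromosome-start stretches, an alternative chosen after seeing the data, gave 8.89 kb, 5.34 and 2164 bp. Of the 49 named stretches, 34 still held 3 or more peaks at 5 kb, 46 at 10 kb and 37 after merging. Merging left 1 peak at the start of chromosome 18, at the Etv5 gene start and in the compact stretches of chromosomes 3, 16 and 17. It left 2 peaks in the stretch downstream of Sox2. With peaks at or above the median score only, 46 of the 49 kept any peak and 20 held 3 or more. The unknown depth limits which weak peaks were called and so which stretches reach 3 peaks, and 1 library gives no spread between experiments. No paired analysis was possible because the groups hold single libraries and only the FLAG library was read.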
